A study of Mus musculus with 16 samples.

Results

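The nuclear lamina and LINC complex genes examined here were Lbr, Lmna, Lmnb1, Lmnb2, Sun1, Sun2, Syne1, Syne2, Syne3 and Emd. These 10 genes were listed by name as genes that set nuclear shape and stiffness in neutrophils, with no measured value in the rule but with earlier results of these data known. All 10 were among the 49585 gene identifiers of the deposited tables, and all 10 had enough counts to be tested in every comparison. The libraries were RNA sequencing libraries from cells sorted as neutrophils out of the bones of C57BL/6 mice aged 8 to 12 weeks. P2KO denotes mice with the genotype Vav:cre-PHD2f/f, and P2WT their wild-type controls. P2H2KO denotes mice with the genotype Vav:cre-PHD2/HIF2ff/ff, and P2H2WT the wild-type controls of that line. PHD2, encoded by Egln1, is the oxygen sensor that marks HIFα subunits for degradation, and HIF2α is encoded by Epas1. Vav:cre acts in blood-forming cells generally and is not restricted to neutrophils. Whether the wild-type mice carried floxed alleles or the recombinase is not stated in the labels. Each of the 4 groups held 4 libraries.

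The lamina is a meshwork of A-type lamins (from Lmna) and B-type lamins (from Lmnb1 and Lmnb2) beneath the inner nuclear membrane. The lamin B receptor and emerin are inner membrane proteins that bind the lamina. SUN proteins cross the inner membrane and bind the KASH domains of nesprins in the outer membrane, and this LINC complex ties the nucleus to the cytoskeleton. Neutrophils have lobed, deformable nuclei, and loss of the lamin B receptor leaves them with poorly lobed nuclei, as in the Pelger-Huët anomaly. The stiffness of the nucleus limits how readily a cell passes through narrow pores, and the title of the series concerns the movement of neutrophils.

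The libraries held between 23450746 and 28601284 counts. The 24 pairs of libraries within a group had correlations of log2 expression from 0.977 to 0.993, and no pair was as alike as sampling noise alone would leave it. Egln1 was at 49.54 ± 6.40 CPM in P2KO against 48.65 ± 2.21 in P2WT (mean ± SD, n = 4 each), where CPM are counts scaled to the size of the library. Epas1 was at 5.65 ± 2.17 CPM in P2H2KO against 3.56 ± 1.02 in P2H2WT (n = 4 each). Counts over the whole gene do not check a deletion of single exons, so the genotype labels are unchecked here. All 8 mature neutrophil markers examined, among them Ly6g, Cxcr2 and S100a8, were found in every group, and together they held 15342.46 to 43231.18 CPM. All 9 erythroid markers examined, globins among them, were also present and held 23848.56 to 49119.44 CPM. In such bulk samples, fewer cells of a type and less RNA per cell cannot be told apart.

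Lamin B receptor transcripts were the most abundant of the 10 genes and nesprin-2 transcripts the least, when levels were taken per kilobase of exon. Lbr averaged 252.13 CPM per kilobase over the 16 libraries, with a range of 234.36 to 278.66, and stood at the 99th percentile of the genes tested. Lmnb1 followed at 181.08 and Sun2 at 144.48 CPM per kilobase. A wide step separated these from Lmna, at 32.67 CPM per kilobase. Emd at 20.63, Lmnb2 at 13.65, Sun1 at 12.15, Syne3 at 10.86 and Syne1 at 8.95 CPM per kilobase came next, and Syne2 was lowest at 1.83. The transcripts were thus dominated by the lamin B receptor, 1 B-type lamin and 1 SUN protein, with the A-type lamin gene well below.

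Neighbours in that order were not all separated. Lbr was above Lmnb1, Sun2 above Lmna, Emd above Lmnb2 and Syne1 above Syne2 in 16 of 16 libraries. Lmna was above Emd in 15 of 16. Lmnb1 was above Sun2 in 14 of 16, Lmnb2 above Sun1 in 14, Sun1 above Syne3 in 13 and Syne3 above Syne1 in 13. The ranges of these 4 pairs of neighbours overlapped, as did those of Lmna and Emd. With the longest annotated transcript as the length, Lmnb2 and Sun1 exchanged places, as did Syne3 and Syne1. Both lengths assume transcripts near full length, which was not checked. Syne1 and Syne2 have 9 and 17 annotated transcripts, so their low places depend on that assumption. The per-kilobase ratio of Lmna to Lmnb1 lay between 0.143 and 0.209 in P2WT, 0.129 and 0.213 in P2KO, 0.179 and 0.206 in P2H2WT and 0.117 and 0.214 in P2H2KO. Sun2 exceeded Sun1 by a per-kilobase ratio of 8.52 to 16.1 within P2KO, and the 3 other groups lay inside that span.

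**Figure D1:**
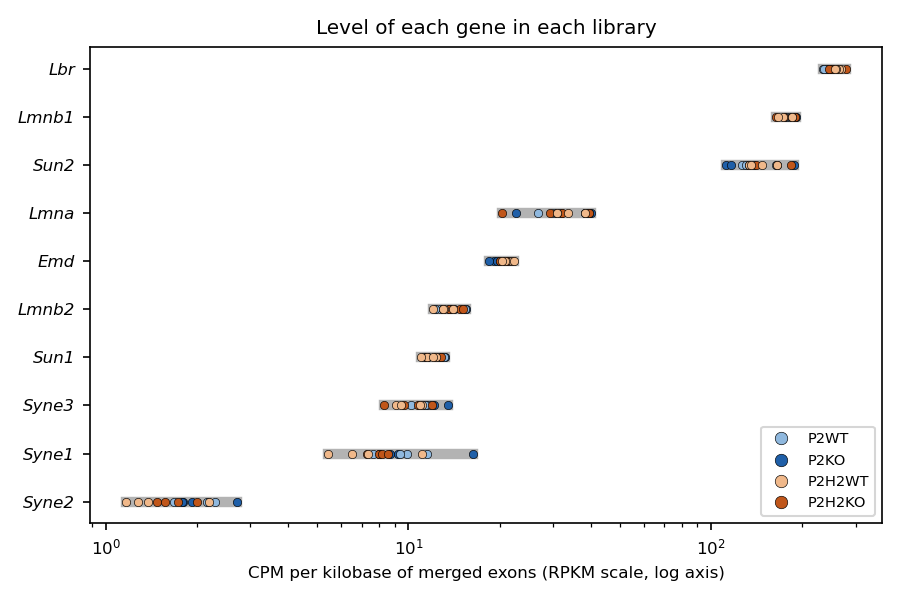
Levels of the 10 genes in CPM per kilobase of merged exons (log axis) in the 16 libraries, ordered by their mean. Lbr, Lmnb1 and Sun2 lie above 112.22 in every library, and Syne2 lies below 2.72.

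Loss of PHD2, alone or with HIF2α, was set against each line's own controls, which asks whether the transcripts of the nuclear envelope move with these genotypes. In P2KO against P2WT, 0 of 10 genes passed an adjusted p of 0.05 by edgeR's quasi-likelihood test, where 0.0437% of the 13734 genes tested passed. In P2H2KO against P2H2WT, 0 of 10 passed, where 0.0744% of 13435 genes did. At an unadjusted p of 0.05, 0 of 10 genes passed in either line, against 3.49% and 2.63% of all genes, and DESeq2 called 0 of 10 in each. The 2 groups of 4 libraries overlapped for every one of the 10 genes in both lines, whereas 2.25% of all genes tested in the P2 line and 1.71% in the P2H2 line did not overlap. Nothing in the labels says that each library came from a separate mouse, so these p-values measure only the spread between these libraries.

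The median log2 fold change of the 10 genes was 0.05 in P2KO against P2WT, where the median of all genes was 0.02. In P2H2KO against P2H2WT it was 0.02, where the median of all genes was 0.0011. In the P2 line 8 of 10 fold changes were positive, against 57.8% of all genes, and in the P2H2 line 7 of 10 were, against 50.5%. On the log2 scale, the lowest and highest bounds of the 95% intervals were -0.38 and 0.68 in the P2 line. They were -0.55 and 0.60 in the P2H2 line. A p that misses the threshold does not show that levels were equal, and larger changes lie outside these intervals.

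**Figure D2:**
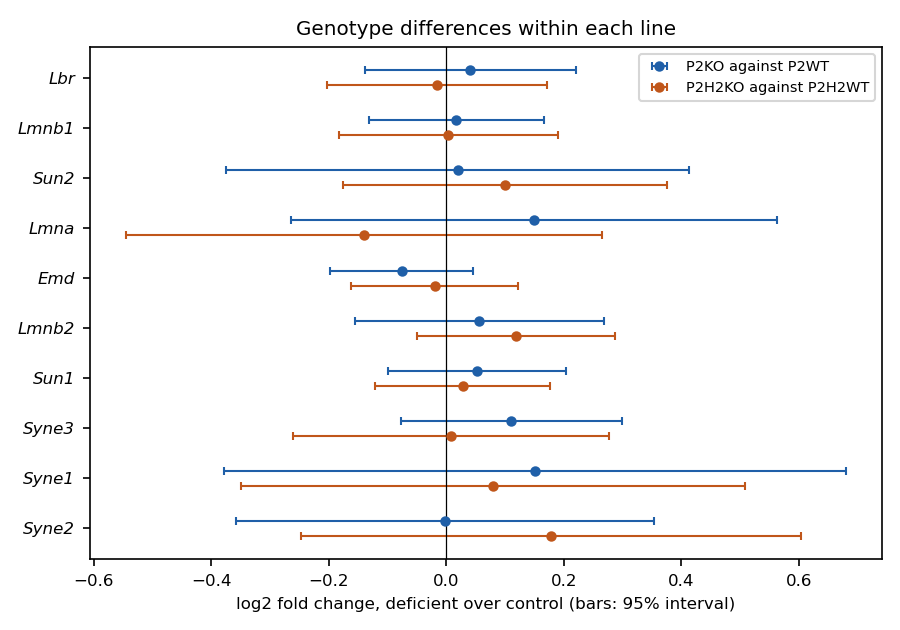
Log2 fold changes of the 10 genes in P2KO against P2WT and in P2H2KO against P2H2WT, with 95% intervals from the edgeR fit of 8 libraries per line. Every interval covers 0, and the intervals of Lmna, Sun2, Syne1 and Syne2 are wider than those of Lbr, Lmnb1, Sun1 and Emd.

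The difference between both genotype effects was tested directly over all 16 libraries, and edgeR called 0 of 10 genes, as it did for 0% of 14080 genes. At an unadjusted p of 0.05, 0 of 10 genes passed, against 1.51% of all genes, and DESeq2 called 0 of 10. The estimates ran from -0.19 for Syne2 (SE 0.26) to 0.28 for Lmna (SE 0.28, 95% interval -0.30 to 0.87). Single libraries moved both: the Lmna difference was 0.13 without P2H2KO replicate 15 and 0.44 without P2KO replicate 6, and the Syne2 difference was -0.09 without P2H2WT replicate 16 and -0.43 without P2H2WT replicate 18. For Lbr the difference of the effects was 0.05 (SE 0.10). The mean of both effects was also below the threshold for all 10 genes, where 0.17% of all genes were called, and 0 of 10 had an unadjusted p under 0.05, against 3.72% of all genes. DESeq2 called 0 of 10 for that mean. It was 0.11 for Syne1 (SE 0.16) and -0.05 for Emd (SE 0.04).

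Among the lamins, Lmnb1 and Lmnb2 encode B-type lamins, which stay anchored to the membrane by farnesylation. Lmnb1 (chromosome 18) was at 556, 564, 522 and 552 CPM in P2KO replicates 1, 5, 6 and 9. Lmnb1 was at 527, 562, 543 and 553 CPM in P2WT replicates 10, 3, 4 and 7. The groups overlapped throughout, and the fold change was 0.02 on the log2 scale (SE 0.07, 95% interval -0.13 to 0.17). In the P2H2 line Lmnb1 averaged 526.04 ± 32.7 CPM in P2H2KO and 524.77 ± 27.9 in P2H2WT (SD, n = 4 each). That difference was 0.0039 on the log2 scale (SE 0.08), much smaller than its error. Lmnb2 (chr10:80901203-80918245, minus strand) lay between 51.5 and 66.6 CPM over all libraries, with log2 fold changes of 0.06 in the P2 line and 0.12 in the P2H2 line (SE 0.09 and 0.07).

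Lmna encodes the A-type lamins A and C, which stiffen the nucleus. Lmna (chr3:88480147-88509956, minus strand) was at 234, 223, 132 and 229.8 CPM in P2KO replicates 1, 5, 6 and 9. The P2WT replicates 10, 3, 4 and 7 had 177, 186, 224 and 156 CPM. Of the P2KO libraries 3 stood near the highest control and replicate 6 stood below every control. Lmna was at 230.2, 188, 119 and 172 CPM in P2H2KO replicates 11, 12, 15 and 17. The P2H2WT replicates 13, 14, 16 and 18 had 196, 223, 181 and 181 CPM. Here replicate 15 was the lowest of all 16 libraries and replicate 11 the highest of its line.

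The log2 fold change of Lmna was 0.15 (SE 0.18, 95% interval -0.26 to 0.56) in the P2 line and -0.14 (SE 0.18, -0.55 to 0.26) in the P2H2 line, and neither passed in edgeR (adjusted p = 1.0 and 0.9999). Leaving out single libraries moved these values. Without P2KO replicate 6 the first was 0.31, and without P2H2KO replicate 15 the second was 0.01. These 2 libraries also had the lowest summed erythroid markers of the 16, at 23848.56 and 24267.45 CPM, where the other 14 lay between 30008.93 and 49119.44.

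Over the 16 libraries, taken as deviations from their group means, Lmna rose and fell with the erythroid markers (Pearson's r = 0.979, Spearman's rho = 0.947, permutation p = 5e-05 for r and 0.0001 for rho). Adjusted over the 100 relations computed between the 10 genes and 10 marker lists, these were 0.00225 and 0.0032. Without the 2 libraries farthest from the median of the erythroid score, r was 0.949. Within the P2 line r was 0.976 and within the P2H2 line 0.984. Cell cycle markers such as Mki67 and Top2a gave r = 0.932 and rho = 0.894 for Lmna (permutation p = 6e-05 and 0.00016, adjusted 0.00225 and 0.0032). That r was 0.888 without the 2 farthest libraries, 0.965 in the P2 line and 0.905 in the P2H2 line. With the erythroid score as a covariate, an alternative chosen after seeing the data, the Lmna effects were 0.06 (SE 0.06) in the P2 line and 0.01 (SE 0.06) in the P2H2 line. The difference between the effects was then 0.04 (SE 0.07), and none of these passed the threshold. With the late granule score, a planned covariate, the Lmna effects were 0.08 (SE 0.14) and -0.09 (SE 0.16) in the P2 and P2H2 lines. Their difference was then 0.16 (SE 0.22), and none of these passed the threshold. The erythroid score follows Lmna in these same libraries, so smaller effects with it do not test a cause.

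**Figure D3:**
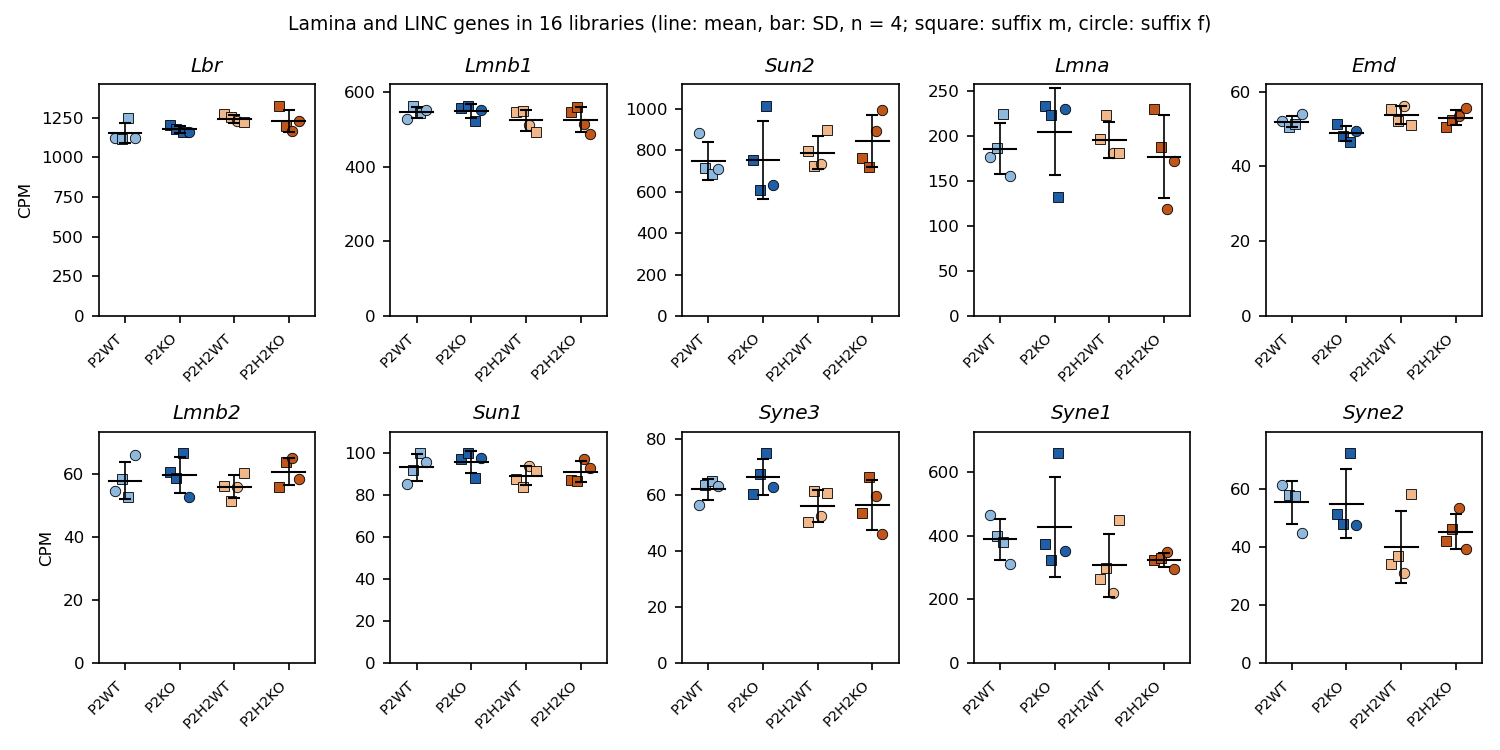
CPM of the 10 genes in each library by group, with the group means. Each deficient group overlaps its own controls for every gene, and P2KO replicate 6 is the lowest P2KO library for Lmna (132 CPM) and the highest for Sun2, Syne1 and Syne2 (1016, 661 and 72.6 CPM).

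Lbr and Emd, both genes of inner membrane proteins, had the smallest standard deviations of log2 CPM within groups among the 10. Lbr (chr1:181815335-181843046, minus strand) encodes the lamin B receptor, which also carries a sterol reductase domain. It was at 1203, 1177, 1162 and 1161 CPM in P2KO replicates 1, 5, 6 and 9. In P2WT replicates 10, 3, 4 and 7 it was at 1121, 1116, 1246 and 1124 CPM. The P2KO libraries lay above 3 of the 4 controls and below replicate 4, and the log2 fold change was 0.04 (SE 0.08, 95% interval -0.14 to 0.22). Lbr averaged 1229.88 ± 69.7 CPM in P2H2KO and 1243.83 ± 24.4 in P2H2WT (SD, n = 4 each), a log2 fold change of -0.02 (SE 0.08). Merged exons of Lbr overlap those of Dnah14 on the opposite strand over 9.24% of their length, and the use of strand in counting is not stated.

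Emd (chrX:74254687-74261548, plus strand) encodes emerin, a LEM-domain protein. It was at 51.4, 48.2, 46.6 and 49.4 CPM in P2KO replicates 1, 5, 6 and 9. The P2WT replicates 10, 3, 4 and 7 had 52.1, 50.5, 51.4 and 53.9 CPM. Of the P2KO libraries, 3 lay below every control and replicate 1 lay between them, and the log2 fold change was -0.08 (SE 0.05, 95% interval -0.20 to 0.05). In P2H2KO replicates 11, 12, 15 and 17 Emd was at 50.7, 52.5, 53.5 and 55.6 CPM, and in P2H2WT replicates 13, 14, 16 and 18 at 55.4, 52.3, 56.3 and 51.1 CPM. These groups overlapped almost fully, with a log2 fold change of -0.02 (SE 0.06). Emd is X-linked, and the titles end in m for 10 libraries and f for 6. The suffix m is not balanced over the groups, with 3 libraries in P2KO, 2 in P2WT, 2 in P2H2KO and 3 in P2H2WT. The log2 difference of Emd for f against m, with group in the fit, was 0.06 (SE 0.04, edgeR adjusted p = 0.375), where 0.163% of all genes were called. The same difference was -0.21 for Lmna (SE 0.14) and -0.21 for Syne1 (SE 0.17), and edgeR and DESeq2 called 0 of 10 genes, with 0 at an unadjusted p under 0.05 in edgeR against 17.5% of all genes. With the erythroid score as a covariate the Lmna value was 0.0078. With the title suffix as a covariate, the Lmna genotype effects were 0.14 (SE 0.20) in the P2 line and -0.07 (SE 0.14) in the P2H2 line. Their difference was then 0.21 (SE 0.27), and none of these passed the threshold. Of the exon length of Emd, 13.6% overlaps Gm14686 on the same strand.

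SUN1 and SUN2 are the SUN proteins of most tissues, and both bind nesprins. Sun1 (chr5:139200637-139249840, plus strand) lay between 83.9 and 100.03 CPM over the 16 libraries, with log2 fold changes of 0.05 in the P2 line (SE 0.07) and 0.03 in the P2H2 line (SE 0.07). Sun2 (chr15:79724070-79742536, minus strand) was at 752, 608, 1016 and 632 CPM in P2KO replicates 1, 5, 6 and 9. Sun2 was at 885, 714, 687 and 708 CPM in P2WT replicates 10, 3, 4 and 7. The P2KO group held both the highest and the lowest library of all 16, and its log2 fold change was 0.02 (SE 0.17, 95% interval -0.38 to 0.41). Sun2 was at 764, 721, 894 and 996 CPM in P2H2KO replicates 11, 12, 15 and 17, and at 797, 722, 736 and 896 CPM in P2H2WT replicates 13, 14, 16 and 18. Both groups spread widely and overlapped, with a log2 fold change of 0.10 (SE 0.12). Without P2KO replicate 6 the Sun2 value of the P2 line was -0.16.

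Sun2 ran with the markers of late granule formation, Ltf, Camp, Ngp, Lcn2 and Chil3. Over the 16 libraries, as deviations from group means, r was 0.982 and rho 0.953 (permutation p = 9e-05 and 0.00011, adjusted over the 100 relations 0.00225 and 0.0032). Without the 2 libraries farthest from the median of that score r was 0.967, and it was 0.991 and 0.977 within the P2 and P2H2 lines. The P2KO replicate with the highest Sun2, replicate 6, also had the highest summed late granule markers of its line, 42847.69 CPM. P2H2KO replicate 17 had the highest of its line in both, with 996 CPM of Sun2 and 47710.97 CPM of the markers. Sun2 also ran with the mature neutrophil list (r = 0.978, rho = 0.959, permutation p = 7e-05 and 8e-05, adjusted 0.00225 and 0.0032). That r was 0.957 without the 2 farthest libraries, 0.975 in the P2 line and 0.993 in the P2H2 line.

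The relations given next had smaller r than those of Lmna and of Sun2 with the neutrophil lists. Sun2 ran against the cell cycle list (r = -0.792, p = 0.00395, adjusted 0.0449, and rho = -0.841, p = 0.00015, adjusted 0.0032, in permutation tests). That r was -0.723 without the 2 farthest libraries and -0.85 and -0.768 within the P2 and P2H2 lines. Lmnb1 ran against the late granule list (r = -0.846, p = 0.00031, adjusted 0.0062, and rho = -0.791, p = 0.00075, adjusted 0.0125, in permutation tests). Without the 2 farthest libraries that r was -0.803, and it was -0.875 and -0.947 within the P2 and P2H2 lines. Lmnb1 also ran against the mature neutrophil list (r = -0.728, p = 0.00091, adjusted 0.0152, and rho = -0.647, p = 0.00873, adjusted 0.0727, in permutation tests). Its r was -0.69 without the 2 farthest libraries and -0.82 and -0.885 within the lines. Lmnb1 ran with the cell cycle list (r = 0.766, p = 0.00526, adjusted 0.0478, and rho = 0.724, p = 0.0085, adjusted 0.0727, in permutation tests), with r at 0.768 without the 2 farthest libraries and 0.723 and 0.822 within the lines. It also ran with the T and NK cell list (r = 0.756, p = 0.00472, adjusted 0.0472, and rho = 0.759, p = 0.0035, adjusted 0.0437, in permutation tests), with r at 0.731 without the 2 farthest libraries and 0.637 and 0.848 within the lines. The 9 markers of that list together held only 70.0 to 102.6 CPM. Lmnb2 ran against the erythroid list (r = -0.745, p = 0.00319, adjusted 0.0449, and rho = -0.747, p = 0.00419, adjusted 0.0466, in permutation tests). Its r was -0.673 without the 2 farthest libraries and -0.743 and -0.78 within the lines. Emd ran with the early granule list, which holds Elane and Mpo (r = 0.794, p = 0.00404, adjusted 0.0449, and rho = 0.788, p = 0.0053, adjusted 0.053, in permutation tests). That r was 0.69 without the 2 farthest libraries and 0.739 and 0.844 within the lines. Syne1 ran with the mature neutrophil list (r = 0.737, p = 0.00575, adjusted 0.0479, and rho = 0.612, p = 0.0197, adjusted 0.119, in permutation tests). Its r fell to 0.515 without the 2 farthest libraries and was 0.92 in the P2 line but 0.405 in the P2H2 line. Both of those libraries are of the P2 line, so their part and that of the line cannot be told apart. Lbr, Sun1, Syne2 and Syne3 had no relation with an adjusted p for r under 0.05, and in all 12 of the 100 relations had one. How often other genes pass with these lists was not computed. The relations, those of Lmna and Sun2 included, are therefore not shown to be particular to these genes. The genes and the marker scores come from the same libraries and share their scaling, and what part cell content has in the levels of these genes was not tested.

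Nesprins are large proteins that carry the KASH domain: nesprin-1 (Syne1) and nesprin-2 (Syne2) bind actin in their giant forms, and nesprin-3 (Syne3) binds plectin. Syne1 (chr10:5020917-5551482, minus strand) was at 374, 325, 661 and 353 CPM in P2KO replicates 1, 5, 6 and 9. It was at 465, 399.8, 381 and 309.9 CPM in P2WT replicates 10, 3, 4 and 7. In P2KO, replicate 6 was far above the rest, which lay within the range of the controls. Syne1 was at 325, 331, 348 and 295 CPM in P2H2KO replicates 11, 12, 15 and 17, and at 265, 299, 219.6 and 448 CPM in P2H2WT replicates 13, 14, 16 and 18. The control replicate 18 was the highest of that line, so the P2H2KO libraries lay inside the range of their controls.

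Syne1 changed by 0.15 on the log2 scale in the P2 line (SE 0.23, 95% interval -0.38 to 0.68) and by 0.08 in the P2H2 line (SE 0.19), neither past the threshold in edgeR (adjusted p = 1.0 and 0.9999). Without P2KO replicate 6 the P2 value was -0.14. When P2H2WT replicate 18 was left out, the P2H2 value was 0.31 (edgeR adjusted p = 0.976). Syne2 (chr12:75818134-76110926, plus strand) was at 51.6, 48.0, 72.6 and 47.7 CPM in P2KO replicates 1, 5, 6 and 9. Syne2 was at 61.5, 58.1, 57.6 and 44.9 CPM in P2WT replicates 10, 3, 4 and 7. As with Syne1, replicate 6 stood above all 4 controls. Syne2 was at 42.1, 46.3, 53.6 and 39.6 CPM in P2H2KO replicates 11, 12, 15 and 17, and at 34.1, 36.9, 31.2 and 58.5 CPM in P2H2WT replicates 13, 14, 16 and 18. Control replicate 18 was again the highest, and the other 3 controls lay below every P2H2KO library. The log2 fold change of Syne2 was -0.0028 in the P2 line (SE 0.16) and 0.18 in the P2H2 line (SE 0.19), and without P2KO replicate 6 the former was -0.17. Without P2H2WT replicate 18 the P2H2 value was 0.41, also not past the threshold (edgeR adjusted p = 0.976).

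Syne3 (chr12:104929933-105009809, minus strand) was at 60.3, 67.5, 75.1 and 62.7 CPM in P2KO replicates 1, 5, 6 and 9, and at 56.3, 63.5, 64.9 and 63.1 CPM in P2WT replicates 10, 3, 4 and 7. It was at 53.5, 66.6, 59.8 and 46.0 CPM in P2H2KO replicates 11, 12, 15 and 17, and at 50.4, 61.6, 52.4 and 60.6 CPM in P2H2WT replicates 13, 14, 16 and 18. Both pairs of groups overlapped, with log2 fold changes of 0.11 (SE 0.08) in the P2 line and 0.0081 (SE 0.12) in the P2H2 line.

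Syne1 and Syne2 moved together from library to library. As deviations from group means over 16 libraries, r was 0.943 and rho 0.924 (permutation p = 3e-05 for each, adjusted p = 0.00135 over the 45 pairs of the 10 genes). Without the 2 libraries farthest from the median of Syne1, r was 0.887, and it was 0.971 in the P2 line and 0.953 in the P2H2 line. Lmnb1 and Sun2 ran against each other (r = -0.763, p = 0.00096, adjusted 0.0216, and rho = -0.676, p = 0.00838, adjusted 0.13, in permutation tests). That r was -0.708 without the 2 farthest libraries and -0.865 and -0.861 within the lines. Lmna and Lmnb2 did too (r = -0.749, p = 0.0029, adjusted 0.0435, and rho = -0.709, p = 0.00869, adjusted 0.13, in permutation tests). Their r was -0.691 without the 2 farthest libraries and -0.773 and -0.734 within the lines. The other 42 pairs had no adjusted p under 0.05 by either measure. How often pairs of other genes pass was not computed.

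The 10 genes differed in how much they varied between libraries of the same group. The standard deviation of log2 CPM around the group means was 0.06 for Emd and 0.06 for Lbr, at the 3.27th and 3.81st percentiles of 9817 genes with a mean of at least 5 CPM. Lmnb1 was at 0.07 and Sun1 at 0.08, still below the median of those genes, 0.149. Lmna at 0.31 and Syne1 at 0.35 stood at the 88.5th and 92.1st percentiles, with Syne2 (0.28) and Sun2 (0.23) also above the median. By the ratio of the highest to the lowest library the order differed at the low end, with Lmnb1 at 1.16, Lbr and Sun1 at 1.19 and Emd at 1.21. That ratio was 3.01 for Syne1. The standard errors of the genotype comparisons followed suit, from 0.05 to 0.08 for Lbr, Lmnb1, Sun1 and Emd and from 0.12 to 0.23 for Lmna, Sun2, Syne1 and Syne2.

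The genes with the most similar pattern over the 16 libraries, among 9580 ranked by the same deviations, were Urod (r = 0.991), an enzyme of heme synthesis, and Cdc6 (r = 0.991), a DNA replication licensing factor, for Lmna. For Sun2 they were Msra (r = 0.995) and Mcu (r = 0.994), the pore of the mitochondrial calcium uniporter. Syne1 was most like Chd7 (r = 0.97), a chromatin remodeller, and Syne2 was most like Syne1 itself. The most similar genes to Lbr were Zfp672 (r = 0.909) and Adk (r = 0.877), to Lmnb1 Pdcd11 (r = 0.942) and Srfbp1 (r = 0.941), and to Emd Cox7c (r = 0.937). Each is the highest or next highest value among 9580 genes and describes these libraries only.

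The lines were also compared with each other, in which the genotype background and anything done per line cannot be told apart. Of P2WT against P2H2WT, 0 of 10 genes passed in edgeR, where 0.227% of 14080 genes did, and DESeq2 called 0 of 10. Syne2 differed by 0.47 on the log2 scale (SE 0.19, edgeR adjusted p = 0.381), with a higher mean in P2WT. It was the only one of the 10 genes with an unadjusted p under 0.05, against 10% of all genes. With single libraries left out the Syne2 difference ran from 0.36 without P2H2WT replicate 16 to 0.70 without P2H2WT replicate 18 (edgeR adjusted p = 0.762 and 0.0996). Syne1 differed by 0.34 (SE 0.23), and by 0.20 and 0.57 without the same replicates 16 and 18. Lbr differed by -0.11 (SE 0.07). Of P2KO against P2H2KO, 0 of 10 passed in edgeR and in DESeq2, where 0.923% of all genes did in edgeR. Syne3 at 0.23 (edgeR adjusted p = 0.305) and Emd at -0.12 (edgeR adjusted p = 0.298) had unadjusted p under 0.05, against 15.8% of all genes. Syne1 at 0.40 and Syne2 at 0.27 did not, and without P2KO replicate 6 both were 0.11. Without P2H2KO replicate 17 Syne3 was 0.13, and without P2KO replicate 1 Emd was -0.18. None of the 10 genes was without overlap between the lines, against 7.77% and 6.99% of all genes. Summed bone stroma markers, Col1a1 among them, were at 443.31 to 1245.21 CPM in the P2 line and 164.57 to 292.62 in the P2H2 line, and their part in these values was not tested.

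Promoter sequences of Sun1, Sun2, Syne1 and Syne2 are shown, as the genotypes concern HIF factors, which bind the core ACGTG or GCGTG. Syne1 and Syne2 vary together and Sun2 follows the granule markers, but no relation of Sun1 passed. Each printed window holds a match. Lmna, which follows the erythroid markers, has windows with neither and is not printed. The printed windows therefore do not stand for all the genes. Windows run from 250 bases before to 50 after a RefSeq start (GRCm38.p6), 5′ to 3′ on the gene's strand, with matches to ACGTG or GCGTG on either strand in capitals. They are chr5:139200387-139200686 (plus) for Sun1, chr15:79742487-79742786 (minus) for Sun2, chr10:5550643-5550942 (minus) for Syne1 and chr12:75818068-75818367 (plus) for Syne2.
Sun1: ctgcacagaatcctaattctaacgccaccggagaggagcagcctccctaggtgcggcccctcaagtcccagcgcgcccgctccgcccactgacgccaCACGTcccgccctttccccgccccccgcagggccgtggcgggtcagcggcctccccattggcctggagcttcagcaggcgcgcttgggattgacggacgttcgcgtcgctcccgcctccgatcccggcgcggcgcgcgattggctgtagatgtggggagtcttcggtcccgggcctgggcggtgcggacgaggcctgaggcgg
Sun2: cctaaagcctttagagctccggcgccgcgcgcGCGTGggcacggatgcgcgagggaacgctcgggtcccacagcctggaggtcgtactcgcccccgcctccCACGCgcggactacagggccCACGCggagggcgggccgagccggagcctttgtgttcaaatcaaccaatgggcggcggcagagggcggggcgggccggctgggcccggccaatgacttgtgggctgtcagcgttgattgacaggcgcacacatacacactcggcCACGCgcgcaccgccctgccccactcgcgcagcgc
Syne1: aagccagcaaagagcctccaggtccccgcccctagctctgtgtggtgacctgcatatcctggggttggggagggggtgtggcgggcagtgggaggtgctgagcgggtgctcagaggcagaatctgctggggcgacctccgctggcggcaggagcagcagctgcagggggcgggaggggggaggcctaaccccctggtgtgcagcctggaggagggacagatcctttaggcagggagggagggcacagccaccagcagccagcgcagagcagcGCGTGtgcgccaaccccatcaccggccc
Syne2: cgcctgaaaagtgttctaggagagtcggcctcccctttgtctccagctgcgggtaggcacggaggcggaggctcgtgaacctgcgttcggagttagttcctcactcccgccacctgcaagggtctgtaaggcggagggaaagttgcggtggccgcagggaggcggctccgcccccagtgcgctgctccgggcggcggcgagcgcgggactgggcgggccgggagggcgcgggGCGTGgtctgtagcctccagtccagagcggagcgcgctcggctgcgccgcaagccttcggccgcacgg
The Sun1 window holds 1 ACGTG, read on the opposite strand, the Sun2 window holds 4 GCGTG, and the Syne1 and Syne2 windows hold 1 GCGTG each. The table lists a further Sun1 window (chr5:139214908-139215207) with 1 ACGTG. It also lists 2 further Syne1 windows, of which chr10:5488265-5488564 holds 1 ACGTG and chr10:5069014-5069313 neither. Syne3 has 1 window, with 1 GCGTG, and of 2 Lmnb2 windows 1 holds a GCGTG. Of all 32851 promoter windows of that length, 19.6% hold ACGTG and 43.8% hold ACGTG or GCGTG. The windows of Lbr, Lmna and Emd in the same table hold neither. Matches describe letters and not binding, and a CACGTG would count on both strands.

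Partners of the 10 genes were followed in 6 lists. Of 13 inner nuclear membrane and lamin partner genes, such as Tmpo and Banf1, edgeR called 0 in either line, and 1 had an unadjusted p under 0.05 in the P2 line, against 3.49% of all genes. That gene was Ankle2, a LEM-domain protein, at 101.23 ± 3.16 CPM in P2KO and 113.29 ± 7.53 in P2WT (SD, n = 4 each). Its log2 difference was -0.15 (SE 0.06) with an edgeR adjusted p of 1.0. Of the 5 lamin processing genes, among them Zmpste24, which cleaves prelamin A, edgeR called 0 in either line. The 7 cytoskeletal partners of nesprins, such as Plec and Kif5b, had 0 called in either line, and so had the 19 nuclear pore genes. In these 3 lists 0 genes had an unadjusted p under 0.05 in edgeR in either line. Of the other SUN and KASH genes, Sun3, Sun5, Spag4, Syne4 and Kash5, 0 of 5 had enough counts to be tested within a line.

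Cholesterol synthesis was followed because the lamin B receptor acts as a sterol reductase. Of these 14 genes edgeR called 0 in either line. An unadjusted p under 0.05 was found for 3 in P2KO against P2WT and 0 in P2H2KO against P2H2WT, against 3.49% and 2.63% of all genes, and DESeq2 found 2 and 0. The median log2 fold changes were 0.15 and -0.03. The lowest p was that of Lss, lanosterol synthase, at 8.93 ± 0.49 CPM in P2KO and 7.65 ± 0.52 in P2WT (SD, n = 4 each). Its log2 difference was 0.23 (SE 0.09) with an edgeR adjusted p of 1.0. In the P2 and P2H2 lines the nuclear pore genes had medians of 0.04 and -0.02, and the inner membrane and lamin partners -0.02 and -0.0087. DESeq2 called 0 genes of these lists in either line.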

How the data were processed

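The authors deposited 2 tables of raw counts per Ensembl gene, 1 per line with 8 libraries each, per the file headers, and no normalization had been applied. HTSeq and mm10 are named per the submitters' processing notes, and RNA was total RNA with standard Illumina libraries, per the labels' protocols. The aligner, the gene annotation and whether counting used strand are not given in the sources used here. Symbols and exon lengths came from GENCODE M21 on GRCm38, which named 49326 of 49585 identifiers, and older symbols were matched (Kash5 as Ccdc155). CPM, log2 CPM (prior count 2) and CPM per kilobase of merged exons were computed here from the deposited counts, with TMM factors of all 16 libraries.

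The main test was edgeR 4.0.16 in R 4.3.3 (filterByExpr, TMM, estimateDisp, robust glmQLFit, glmQLFTest), two-sided, with Benjamini-Hochberg adjustment over all genes tested and a threshold of 0.05. Each genotype comparison used its line's 8 libraries, and the others all 16. Standard errors came from the quasi-likelihood F statistic. The procedure was run on simulated counts, and the outcome is not given here. Those counts were drawn independently for each gene. They do not show how the test behaves where many genes shift together in a library. Relations between genes and marker scores (the mean log2 CPM of a list) used 100000 permutations (numpy 2.4.6, scipy 1.17.1) and were adjusted over their family. Promoters came from RefSeq, build GRCm38.p6. Alternatives were DESeq2 1.42.0, RLE or upper-quartile factors, a minimum of 10 counts per library, no filter on low counts, the title suffix, the late granule score and the erythroid score (added after seeing the data) as covariates, a fit of all 16 libraries, and each library left out. All 10 genes are named whatever their values. From each partner list the rule names genes called anywhere and the lowest p in each line, of which some are given, and for likeness the 2 genes with the highest r. The members and lists were chosen with earlier results of these data known.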

Additional observations from a re-analysis of the deposited data

Results flagged for a closer look

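In groups of 4 libraries, 5 of 40 combinations of gene and group held a library flagged by Dixon's ratio of gap to range at its 95% value. Chance gives about 1 in 20 for a single combination. The 40 are not independent, since genes such as Syne1 and Syne2 move together. The share over all genes was not computed, so no excess is claimed for these genes. In P2WT, Lbr was at 1245.5 CPM in replicate 4, above the other 3 libraries of the group, and Sun2 was at 884.59 CPM in replicate 10, also above. The other 3 were all in P2KO replicate 6. Lmna was at 132.17 CPM there, below the rest of the group, while Syne1 at 660.52 CPM and Syne2 at 72.64 CPM were above it. That library also had the lowest summed erythroid and the highest summed late granule markers of its line, and the part of these in its values was not tested.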

How the results depend on the processing

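Over all 70 combinations of gene and comparison, 108 of 1530 alternative values changed sign, in 33 combinations, and 0 of 10 genes were called in each of 153 repeated counts. The lowest adjusted p was 0.0829, in edgeR, for Lmna in P2KO against P2H2KO with the erythroid score. For the 35 combinations whose values the report gives, 661 of 697 kept their direction, and those that did not follow. For P2KO against P2WT, Syne2 was 0.01548 with the late granule score and 0.00327 with the erythroid score as a covariate. For P2H2KO against P2H2WT, Lmnb1 was -0.007527 and Syne3 -0.001814 with no filter, and Lmnb1 was -0.001466 with at least 10 counts. With the erythroid score, Lbr was 0.01651, Lmna 0.01236 and Sun1 -0.01005 there, and Lmna was 0.00783 for suffix f against m, from -0.212 without it. The cause was not tested. Leaving out each library in turn gave, in the P2 line, -0.00141 to 0.1211 for Lmnb2, -0.1604 to 0.1146 for Sun2, -0.1385 to 0.2605 for Syne1 and -0.1668 to 0.056 for Syne2, each lowest without P2KO replicate 6. In the P2H2 line it gave -0.05576 to 0.01096 for Lbr, -0.2939 to 0.01225 for Lmna, -0.02965 to 0.04218 for Lmnb1, -0.002881 to 0.05477 for Sun1, -0.05129 to 0.3115 for Syne1, -0.07998 to 0.09652 for Syne3 and -0.04723 to 0.004354 for Emd. The mean effect of Syne1 ran from -0.03671 to 0.2265. No paired analysis was done. No replicate number is shared between the groups and the labels used here give no pairing, so whether any libraries were paired is unknown.

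Counts over all genes moved more. DESeq2 called 23 genes for P2KO against P2WT, 42 for P2H2KO against P2H2WT, 65 for the mean effect, 291 for P2WT against P2H2WT, 422 for P2KO against P2H2KO and 444 for the suffix, where edgeR called 6, 10, 24, 32, 130 and 23. The erythroid score gave 11, 15, 50, 596, 646 and 58. The late granule score gave 16 in the P2 line, 49 for the mean, 0 for P2KO against P2H2KO and 286 for the suffix. The title suffix as a covariate gave 4 in the P2 line, 124 between controls and 210 between deficient groups. With at least 10 counts it was 0, 56 and 9 for the last 3 comparisons. With no filter it was 9 between controls and 58 for the suffix, and in a fit of all 16 libraries 10 in the P2 line. Without single libraries the counts ran from 4 to 6, 6 to 9, 15 to 30, 0 to 182, 38 to 179 and 17 to 1066, where P2KO replicate 9 gave 182 and 1066.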
